A study of Mus musculus with 16 samples.

Results

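CT26 cells, a colon carcinoma line of BALB/c mice, that were stably transfected with a hairpin against Txnrd1 (shTR1) were compared with CT26 cells carrying the empty pU6-m3 vector (control). Txnrd1 encodes thioredoxin reductase 1 (TR1). The 4 arrays titled shTR1 and the 4 arrays titled as empty vector controls are 8 of the 16 arrays of the series, and the comparison was made on 45037 probe sets of an Affymetrix mouse genome array, each read as a log2 signal per array. The other 8 arrays, 4 of shSep15 cells (a hairpin against Selenof, the gene of the selenoprotein Sep15) and 4 of shTR1/shSep15 cells (both hairpins), shared in the estimate of the variance. All lines come from the same parental cells, carry the pU6-m3 plasmid and were selected in hygromycin B. Per the study's methods, the 4 arrays of a construct were made from 4 mRNA samples. Neither the labels nor these methods say whether the mRNA samples came from separate cultures or clones, so the p-values measure only the spread between these samples. The study reports working with alternative hairpin sequences and several independent clones, but does not state which of them the arrays used. In such bulk RNA, fewer cells with a transcript and less transcript per cell cannot be told apart.

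TR1 is a selenoprotein that passes electrons from NADPH to thioredoxin, which in turn serves peroxiredoxins, methionine sulfoxide reductases and ribonucleotide reductase, the enzyme of deoxynucleotide supply. Cells also answer electrophiles and oxidants through the transcription factor Nrf2, which is held down by Keap1 and drives genes of glutathione and thioredoxin metabolism, Txnrd1 among them. A short hairpin RNA lowers its target by loading the RNA-silencing complex with a strand that pairs with the target's mRNA. The shTR1 plasmid holds 22 bases of the Txnrd1 cDNA, 9 of them G or C, shown here because they are the only designed difference between the lines compared.
Target of the shTR1 hairpin, 5′ to 3′: atcgctctgacaagcttattag

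The targeted gene differed among the arrays labelled shTR1. The brightest Txnrd1 probe set had log2 signals of 7.84, 10.57, 7.89 and 9.71 in shTR1 replicates 1 to 4, against 10.39, 9.45, 9.90 and 10.10 in control replicates 1 to 4. Replicates 1 and 3 of shTR1 lay below all 4 control arrays, replicate 2 lay above all of them and replicate 4 lay among them. The means were 9.0 ± 1.36 in shTR1 and 9.96 ± 0.40 in control (SD, n = 4 each), and the log2 difference of −0.96 (standard error 0.49) did not pass the test (limma, Benjamini-Hochberg adjusted p = 0.455). A second Txnrd1 probe set read 4.62, 5.24, 4.76 and 5.58 in shTR1 and 6.58, 5.95, 5.57 and 5.51 in control (adjusted p = 0.224). The last and dimmest one read 3.42, 3.56, 3.08 and 3.48 in shTR1 and 3.61, 4.09, 3.54 and 3.83 in control (adjusted p = 0.404). Two-sided exact permutation tests gave p = 0.286, 0.0857 and 0.0571 for the 3 probe sets, where 4 arrays against 4 can reach 0.0286 at best. With shTR1 replicates 2 and 4 left out, the first probe set differed by −2.10 (adjusted p = 0.0317). Those arrays were set aside for their signal at this same probe set, so that p-value is no test of the knockdown. In the same fit the second probe set differed by −1.21 and the dimmest by −0.52, and neither passed (adjusted p = 0.297 and 0.676). At the second probe set, replicate 2 lay below all 4 control arrays and replicate 4 among them, and at the dimmest one replicate 4 lay below all of them and replicate 2 among them. The brightest probe set thus does not show the knockdown in these 2 arrays. The dimmer ones did not pass the test, and each left 1 of the 2 arrays among the controls. At the dimmest, replicate 4 (3.48) lay just under the lowest control (3.54), so they do not show whether Txnrd1 was lowered there. Every shTR1 value is therefore that of an array so labelled, and key results are also given without replicates 2 and 4. Selenof, which shTR1 does not target, had 11.57, 11.73, 11.71 and 12.36 in shTR1 and 11.56, 10.78, 11.57 and 11.42 in control (adjusted p = 0.322), so that no shTR1 array stood at the low level of the Sep15 hairpin lines, whose means were 8.13 in shSep15 and 7.66 in shTR1/shSep15.

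**Figure D1:**
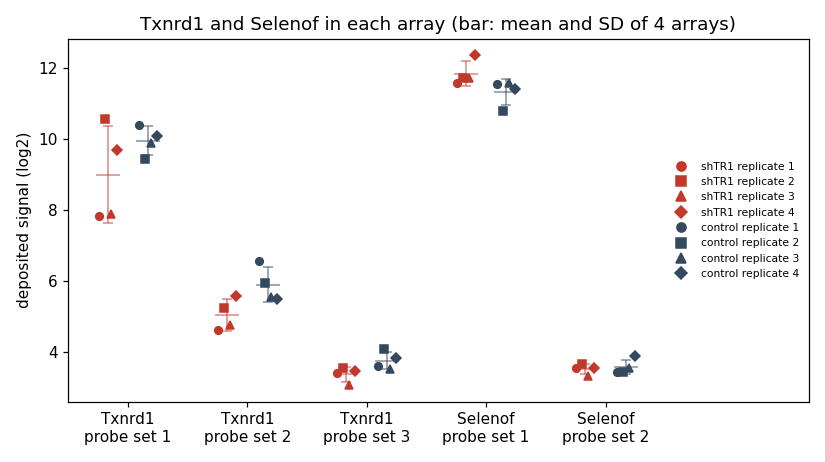
Log2 signal of the 3 Txnrd1 and 2 Selenof probe sets (vertical axis) in each shTR1 array (red, left of each pair) and each control array (dark, right of each pair), with a marker shape per replicate number and bars for the mean and SD of 4 arrays. For Txnrd1 probe set 1, shTR1 replicates 1 and 3 sit at 7.84 and 7.89 and shTR1 replicates 2 and 4 at 10.57 and 9.71, beside controls from 9.45 to 10.39.

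Against control, 59 probe sets were higher in shTR1 (0.131% of those tested) and 22 were lower (0.0488%) at an adjusted p under 0.05, 81 in all. They carried 61 gene symbols, 48 higher and 13 lower, while 11 probe sets (5 higher, 6 lower) had no single symbol and are not named. The largest differences among these 11 were −4.39 and −3.47 (adjusted p = 0.000179 and 0.0003). Both calls held with each array left out, but not in the fit on 8 arrays alone (adjusted p = 0.153 and 0.175). Their shTR1 means of 2.90 and 4.45 lay near or under the medians of the shTR1 arrays. The lower ones changed more, with a median log2 difference of −1.70 (−4.70 to −0.89) against 0.95 (0.50 to 3.18) for the higher ones. A change of at least 2-fold was reached by 26 of the 59 and by 21 of the 22. Before adjustment, p was under 0.05 for 3143 higher (6.98%) and 2159 lower probe sets (4.79%). All 4 shTR1 arrays lay above all 4 control arrays for 1128 probe sets (2.5%) and below them for 771 (1.71%), and the 81 called were among these.

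The counts leaned on the shared variance and on single arrays. Fitted on the 8 arrays alone, 0 probe sets were higher and 4 lower, namely Arhgef5, both probe sets of Dppa2 and Phrf1, which also passed under every alternative in which they were tested. Without shTR1 replicates 2 and 4 there were 10 higher and 10 lower, of which 11 belonged to the 81. Leaving out 1 array moved the number higher to between 13 and 175 and the number lower to between 12 and 44. The largest falls came without control replicate 4 (13 higher, 12 lower) and without shTR1 replicate 2 (21 higher, 13 lower), and the largest rises without control replicate 1 (175 higher, 36 lower), without control replicate 3 (129 higher, 43 lower) and without shTR1 replicate 1 (127 higher, 44 lower). Without shTR1 replicate 4 there were 35 higher and 13 lower, and without control replicate 2 there were 59 higher and 36 lower. The split of 59 higher and 22 lower also moved with the scaling, being 45 and 31 after a further quantile normalization and 62 and 16 after centring each array on its median. Of the 81, 22 (11 higher, 11 lower) passed with each single array left out in turn.

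Of the 13 genes that were lower, the largest fitted difference was that of Arhgef5, a guanine nucleotide exchange factor. Its log2 signals were 4.45, 4.51, 4.75 and 4.36 in shTR1, against 9.60, 8.72, 9.39 and 9.18 in control. The groups were far apart, with a log2 difference of −4.70 (standard error 0.17, adjusted p = 2.36e-09), and the value without shTR1 replicates 2 and 4 was −4.62 (adjusted p = 1.59e-06). Dppa2, a chromatin-associated factor of early embryos and germ cells, had 4.15, 3.20, 2.89 and 3.81 in shTR1, against 8.27, 8.60, 8.34 and 7.37 in control. The log2 difference was −4.64 (standard error 0.45, adjusted p = 0.0003), with −4.63 without shTR1 replicates 2 and 4 (adjusted p = 0.0128), and its other probe set differed by −4.09. The shTR1 signals of both genes lay near or under the medians of the shTR1 arrays, which were 4.45 to 4.51. The values used carry no detection call, so signal above background is not shown there and no fold is given. The same limit holds below for the shTR1 signals of Jakmip3, Foxred2 and the second Mfap5 probe set, which lay under the array medians. It also holds for the control signals of Rgs17 and Clybl, and for Ebf1 in both lines. Dppa4, the partner of Dppa2 and its neighbour in RefSeq order (assembly GRCm38.p6), differed by −1.29 and did not pass (adjusted p = 0.446). None of the 5 measured genes on either side of Arhgef5 passed, with differences of −0.75 to −0.05.

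Phrf1, a PHD and RING finger protein with ubiquitin ligase activity, had 8.16, 7.66, 7.79 and 7.69 in shTR1, against 9.60, 9.52, 9.91 and 9.74 in control. Its spread within each line was small, and the difference of −1.87 (standard error 0.11, adjusted p = 2.05e-06) was −1.72 without shTR1 replicates 2 and 4 (adjusted p = 0.000276). Jakmip3, a Janus kinase and microtubule interacting protein, had 3.65, 3.70, 3.39 and 3.20 in shTR1, against 4.77, 4.99, 4.42 and 4.72 in control (difference −1.24, standard error 0.12, adjusted p = 0.000451). Gldc, the glycine decarboxylase of the mitochondrial glycine cleavage system, had 5.49, 5.16, 5.48 and 5.25 in shTR1, against 6.90, 6.74, 6.22 and 6.28 in control (difference −1.19, standard error 0.14, adjusted p = 0.00272). Neither gene's arrays overlapped. Without shTR1 replicates 2 and 4, Jakmip3 passed (−1.20, adjusted p = 0.00918) and Gldc did not (−1.05, adjusted p = 0.0738).

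Zfp397, a zinc finger protein, had 5.60, 5.78, 5.92 and 5.95 in shTR1, against 6.88, 6.68, 6.47 and 6.77 in control (difference −0.89, standard error 0.12, adjusted p = 0.00654), and its other probe sets differed by −1.65 and −1.07 without passing. Mfap5, a glycoprotein of elastin-associated microfibrils, had 5.56, 3.47, 4.11 and 4.11 in shTR1, against 6.57, 5.75, 5.97 and 6.25 in control at one probe set (difference −1.82, standard error 0.34, adjusted p = 0.0471). At the other it had 3.78, 3.06, 3.19 and 3.46 in shTR1, against 4.61, 4.24, 4.39 and 4.71 in control (difference −1.11, adjusted p = 0.0062). In both genes every shTR1 array lay below every control array. Phrf1, Jakmip3, Gldc, Zfp397 and the second Mfap5 probe set kept the call with each array left out. The first Mfap5 probe set lost it without any one of shTR1 replicates 2, 3 and 4 and control replicates 1, 3 and 4 (adjusted p = 0.0529 to 0.154). Without shTR1 replicates 2 and 4, neither Zfp397 nor Mfap5 passed (adjusted p = 0.0621 to 0.358).

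A further 6 genes were lower and missed the threshold when certain single arrays were left out, with differences of similar size. Lrrn4cl had 5.85, 4.91, 4.77 and 4.76 in shTR1, against 7.54, 8.44, 10.59 and 7.23 in control, where replicate 3 stood far above the rest (difference −3.38, standard error 0.54, adjusted p = 0.0199). It did not pass without shTR1 replicate 2 (−3.32, adjusted p = 0.0597), 3 (−3.27, adjusted p = 0.0504) or 4 (−3.27, adjusted p = 0.0653). Tshz1, a teashirt zinc finger transcription factor, had 7.25, 7.86, 7.51 and 7.22 in shTR1, against 9.87, 8.97, 8.89 and 9.50 in control (difference −1.85, standard error 0.32, adjusted p = 0.0324), and its other probe set differed by −1.79. Both Tshz1 calls ended without shTR1 replicate 3, shTR1 replicate 4 or control replicate 4, and the first also without shTR1 replicate 2 (−1.98 to −1.69, adjusted p = 0.0531 to 0.126). None of the calls of these 6 genes held without shTR1 replicates 2 and 4.

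Zfp24, a zinc finger transcription factor, had 5.42, 5.42, 6.12 and 5.93 in shTR1, against 7.89, 6.69, 7.13 and 8.02 in control at 1 of its 6 probe sets (difference −1.71, standard error 0.30, adjusted p = 0.0335), while the other 5 differed by −1.39 to −0.73 and did not pass. Foxred2, a flavoprotein of endoplasmic reticulum protein degradation, had 4.14, 3.32, 3.68 and 3.98 in shTR1, against 4.63, 5.67, 4.78 and 4.76 in control (difference −1.18, standard error 0.22, adjusted p = 0.0476). Both genes' lines were separate but spread within themselves. Rac2, a small GTPase of blood cells, had 5.02, 4.46, 4.63 and 4.63 in shTR1, against 6.10, 5.19, 6.14 and 5.90 in control (difference −1.15, standard error 0.20, adjusted p = 0.0332), with −0.30 at another probe set (adjusted p = 0.248). Tsnax, the partner of the RNA-binding protein translin, had 5.0, 4.87, 4.63 and 4.93 in shTR1, against 6.59, 5.42, 5.99 and 6.0 in control (difference −1.15, standard error 0.18, adjusted p = 0.0176), with −0.37 at another (adjusted p = 0.182). The control arrays of both genes were lowest in replicate 2. Zfp24, Foxred2, Rac2 and Tsnax lost the call without shTR1 replicate 2 (adjusted p = 0.114, 0.144, 0.113 and 0.0544) and without control replicate 4 (0.129, 0.118, 0.124 and 0.0704), and all but Tsnax without shTR1 replicate 4 (0.0653 to 0.0779). Zfp24 also lost it without shTR1 replicate 1 (0.0524), Foxred2 (0.0987) and Rac2 (0.0722) without shTR1 replicate 3, and Rac2 without control replicate 3 (0.0529). In these fits the differences were −1.78 to −1.51 for Zfp24, −1.25 to −1.03 for Foxred2, −1.13 to −1.04 for Rac2 and −1.15 for Tsnax.

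The largest fitted increase was that of Ccr1, a receptor for chemokines such as Ccl3 and Ccl5 that is best known from leukocytes. Ccr1 had log2 signals of 8.14, 8.38, 6.43 and 7.30 in shTR1, against 4.19, 4.24, 4.91 and 4.23 in control. All 4 shTR1 arrays lay above the controls, with replicate 3 the lowest of them, and the difference was 3.18 (standard error 0.34, adjusted p = 0.00084). Control replicates 1, 2 and 4 lay below their array medians of 4.47 to 4.58, so signal above background is not shown in control and no fold is given. It was 2.90 without shTR1 replicates 2 and 4 (adjusted p = 0.0176) and did not pass in the fit on 8 arrays alone (adjusted p = 0.175). A second, dim Ccr1 probe set had 4.93, 3.55, 2.56 and 2.75 in shTR1, against 2.16, 2.48, 2.41 and 2.49 in control, and did not pass (difference 1.06, adjusted p = 0.263). The neighbouring receptor genes Ccr1l1, Ccr3 and Ccr2 differed by 0.09, −0.20 and −0.09, and none of the 3 passed.

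Prkar1b, a regulatory subunit of cAMP-dependent protein kinase, had 8.55, 7.51, 7.30 and 7.67 in shTR1, against 5.90, 4.96, 6.17 and 4.60 in control (difference 2.35, standard error 0.39, adjusted p = 0.0266), and 0.89 at a second probe set (adjusted p = 0.0212), while 3 more probe sets differed by 0.09 to 0.15 and did not pass. Its controls spread widely, but no array overlapped. Among the higher genes, Rpp40 and Rpp21 encode protein subunits of ribonuclease P, which trims the 5′ end of transfer RNAs. Rpp40 had 7.72, 8.44, 8.40 and 7.93 in shTR1, against 7.03, 5.65, 6.58 and 6.31 in control (difference 1.73, adjusted p = 0.0135), and 1.5 at its other probe set. Rpp21 had 8.74, 8.09, 8.17 and 8.27 in shTR1, against 6.83, 6.82, 7.13 and 7.05 in control (difference 1.36, adjusted p = 0.00669). Of these genes, Rpp21 passed with each array left out. Each call of Prkar1b and Rpp40 ended without shTR1 replicate 2 (adjusted p = 0.0544 to 0.122) and without control replicate 4 (0.0634 to 0.141). Both Prkar1b calls and the second Rpp40 call also ended without shTR1 replicate 4 (0.0653 to 0.0745), the first Prkar1b call and the second Rpp40 call without control replicate 2 (0.0573 and 0.0608), and the second Rpp40 call without shTR1 replicate 3 (0.0897). Without shTR1 replicates 2 and 4, Rpp21 did not pass (1.49, adjusted p = 0.0502), and neither did Prkar1b (2.52) or Rpp40 (1.67).

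The next 11 genes complete the 15 with the largest increases. Smarcal1, a helicase that anneals DNA at stalled replication forks, had 7.17, 7.01, 6.79 and 6.74 in shTR1, against 5.92, 5.59, 5.98 and 5.42 in control (difference 1.20, standard error 0.15, adjusted p = 0.00463). Dip2c, a disco-interacting protein, had 8.01, 8.63, 8.03 and 8.18 in shTR1, against 7.29, 6.15, 6.93 and 6.58 in control (difference 1.48, standard error 0.21, adjusted p = 0.01). Ahcyl2, a relative of S-adenosylhomocysteine hydrolase, had 7.79, 7.94, 7.73 and 8.13 in shTR1, against 6.77, 6.78, 6.75 and 6.02 in control (difference 1.32, standard error 0.19, adjusted p = 0.0103). Their shTR1 arrays lay close together and the controls were more spread, with Ahcyl2 lowest in control replicate 4. Rgs17, a regulator of G protein signalling, had 5.26, 5.35, 4.54 and 5.33 in shTR1, against 4.17, 3.87, 3.58 and 3.92 in control (difference 1.23, standard error 0.18, adjusted p = 0.0103). These 4 genes passed with each array left out. Jmy, a p53 cofactor that also nucleates actin, had 7.25, 7.85, 7.61 and 7.65 in shTR1, against 6.54, 5.69, 6.33 and 6.10 in control (difference 1.42, standard error 0.20, adjusted p = 0.0103). Smad5, a transducer of bone morphogenetic protein signals, had 6.93, 7.56, 7.21 and 7.05 in shTR1, against 6.42, 5.85, 5.95 and 5.90 in control (difference 1.16, standard error 0.17, adjusted p = 0.0103). Jmy and Smad5 lost the call without control replicate 4 alone (adjusted p = 0.0508 and 0.0561).

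Clybl, a mitochondrial lyase, had 5.10, 4.92, 5.49 and 5.67 in shTR1, against 4.26, 3.28, 4.05 and 3.52 in control (difference 1.52, standard error 0.26, adjusted p = 0.0324). Naip2, an inflammasome receptor, had 7.95, 6.98, 7.08 and 7.12 in shTR1, against 6.12, 5.53, 6.48 and 5.61 in control (difference 1.35, standard error 0.24, adjusted p = 0.0392). Ezh1, a histone H3 lysine methyltransferase of the Polycomb complex, had 7.96, 7.39, 7.72 and 7.90 in shTR1, against 6.56, 5.94, 7.14 and 6.40 in control (difference 1.23, standard error 0.23, adjusted p = 0.0476). In Naip2 and Ezh1 control replicate 3 came closest to the shTR1 arrays. Mcoln1, a lysosomal cation channel, had 7.41, 7.58, 7.16 and 7.74 in shTR1, against 6.62, 6.08, 6.63 and 5.78 in control (difference 1.19, standard error 0.20, adjusted p = 0.0289). Mrps18b, a mitochondrial ribosomal protein, had 9.64, 10.07, 9.61 and 9.24 in shTR1, against 8.63, 8.32, 8.79 and 8.30 in control (difference 1.13, standard error 0.18, adjusted p = 0.0182). Each of these 5 lost the call without shTR1 replicate 2 and without control replicate 4. All but Mrps18b also lost it without shTR1 replicate 4 and without control replicate 2, Clybl, Naip2 and Ezh1 without shTR1 replicate 3, and Ezh1 without shTR1 replicate 1 or control replicate 1, with adjusted p-values of up to 0.159. Without shTR1 replicates 2 and 4, none of the 11 genes passed. Other probe sets of Smarcal1, Ahcyl2, Rgs17, Jmy, Smad5, Ezh1 and Mcoln1 did not pass, with differences of −0.06 to 1.00.

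**Figure D2:**
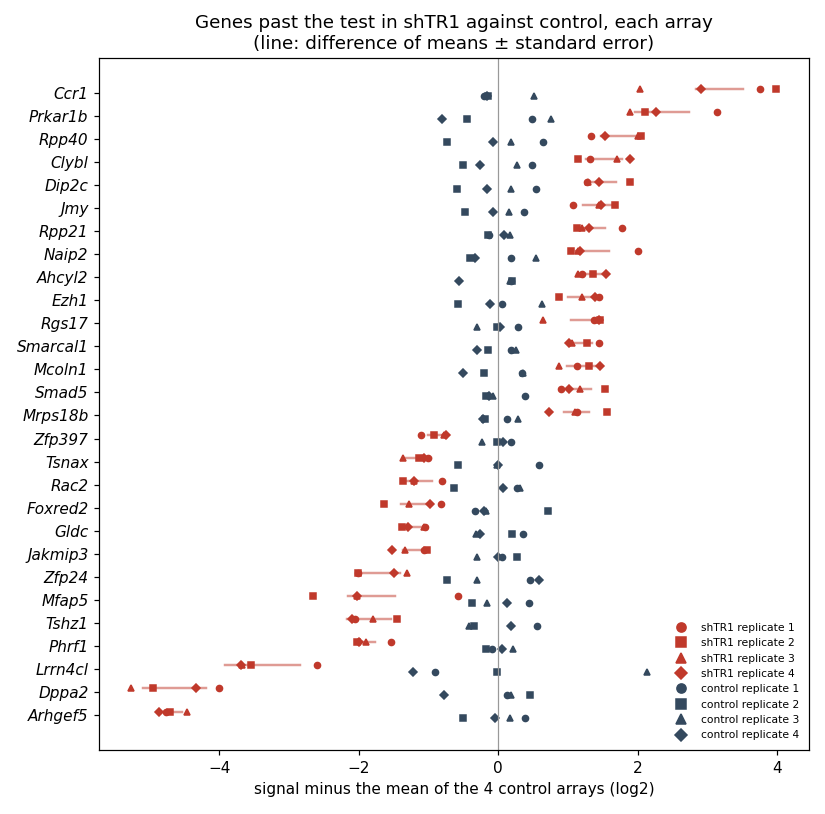
Each row is a gene past the test, with the log2 signal of the 4 shTR1 arrays (red) and the 4 control arrays (dark) drawn relative to the mean of the 4 controls, and a pale line for the difference of means ± its standard error. The 4 shTR1 arrays and the 4 control arrays do not overlap in any row, from Arhgef5 at −4.70 to Ccr1 at 3.18.

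The other 33 genes that were higher had log2 differences of 0.50 to 1.12. The largest of them beside Ahnak were those of the cap methyltransferase Cmtr1 (1.11 and 0.99), Alkbh7 (1.11), the syntaxin Stx1a (1.07 and 0.92), the splicing factor kinase Srpk1 (1.05) and the secretory carrier protein Scamp1 (1.05), and the smallest were those of Cox5b, a subunit of cytochrome c oxidase (0.52 and 0.50), the transcription factor Ebf1 (0.51) and the RNA helicase Dhx30 (0.51). Ahnak, a giant scaffold protein, had 11.65, 11.93, 12.01 and 11.89 in shTR1 and 10.79, 10.32, 11.15 and 10.74 in control (difference 1.12, adjusted p = 0.0392), while 3 dimmer Ahnak probe sets differed by −0.34 to 0.04 and did not pass. The Ahnak call ended without any one of shTR1 replicates 2, 3 and 4 and control replicates 2 and 4 (adjusted p = 0.0687 to 0.135). With each array left out, the GTPase Rab31 (1.03), 1 probe set of Stx1a and the predicted gene Gm1976 (0.97) kept the call, and Srpk1 was the one of these genes that passed without shTR1 replicates 2 and 4 (1.19, adjusted p = 0.0317), though it missed without shTR1 replicate 2 alone (0.057) and without control replicate 4 (0.0715). The remaining calls ended with at least 1 array left out, at adjusted p-values of up to 0.166, most often without control replicate 4 or shTR1 replicate 2.

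The genes higher in shTR1 were unevenly spread over the chromosomes. Chromosome 17 held 12 of the 59 probe sets and chromosome 13 held 11, which is 0.802% of the probe sets on either chromosome, against 0.131% of all. On chromosome 13 these were 10 genes, Rpp40, Dip2c, Jmy, Naip2, Smad5, Scamp1, Mrps27, Zcchc9, Cdkal1 and Larp4b, and on chromosome 17 they were 11, among them Rpp21, Mrps18b, Cmtr1, Srpk1, Rab31 and Mta3. Chromosomes 1 and 5 held 8 each, and no called probe set was lower on any of these 4 chromosomes. Chromosome 18 held no higher one and 4 of the 22 lower ones, those of Tshz1, Zfp24 and Zfp397.

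The shift was not limited to the called genes. Over the genes whose mean signal was above the median of all probe sets, the median log2 difference was 0.35 on chromosome 13 (403 genes) and 0.27 on chromosome 17 (580 genes), against 0.07 over all 11539 such genes. With dim genes included the medians were 0.06 (702 genes) and 0.07 (834 genes), against −0.03 over all 18193 genes. Of the brighter genes (mean signal above the median of all probe sets) on chromosome 13, 73.7% had a positive difference and 35.7% were higher at an unadjusted p under 0.05. On chromosome 17 the shares were 69.5% and 29.1%, against 57.5% and 13.5% over all brighter genes. Relative to the same genes' means over 16 arrays and to all brighter genes of that array, the chromosome 13 genes stood at 0.04, 0.24, 0.31 and 0.04 in shTR1 replicates 1 to 4, against −0.05, −0.07, −0.21 and −0.16 in control. The chromosome 17 genes stood at 0.06, 0.08, 0.01 and 0.02 in shTR1, against −0.14, −0.04, −0.07 and −0.08 in control. No shTR1 array overlapped a control array on either chromosome, although shTR1 replicates 1 and 4 were only slightly above the controls on chromosome 13. Of the other chromosomes, only chromosome 19 was also without overlap, in the other direction, with −0.10 to −0.03 in shTR1 against 0.02 to 0.06 in control. With each chromosome's brighter genes divided into 4 consecutive blocks of equal number, the median was 0.49, 0.28, 0.31 and 0.40 on chromosome 13 and 0.32, 0.23, 0.20 and 0.30 on chromosome 17, so that no single stretch carried the shift. Single blocks of chromosomes 1, 3, 5 and 8 had medians of 0.22, 0.26, 0.23 and 0.25, as large as some of these. Over the alternatives the median of the brighter genes ran from 0.20 to 0.45 on chromosome 13 and from 0.17 to 0.32 on chromosome 17, against −0.01 to 0.13 for all brighter genes. Without shTR1 replicates 2 and 4 the medians were 0.36 and 0.22.

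The same genes can be set beside the other lines, whose comparisons with control use the same 4 control arrays. For the brighter genes of chromosome 13 the median difference from control was 0.16 in shSep15 and 0.14 in shTR1/shSep15, and for chromosome 17 it was 0.22 and 0.11. Set directly against these lines, shTR1 was higher by a median of 0.12 than shSep15 and of 0.20 than shTR1/shSep15 on chromosome 13. On chromosome 17 the medians were −0.01 against shSep15 and 0.07 against shTR1/shSep15.

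**Figure D3:**
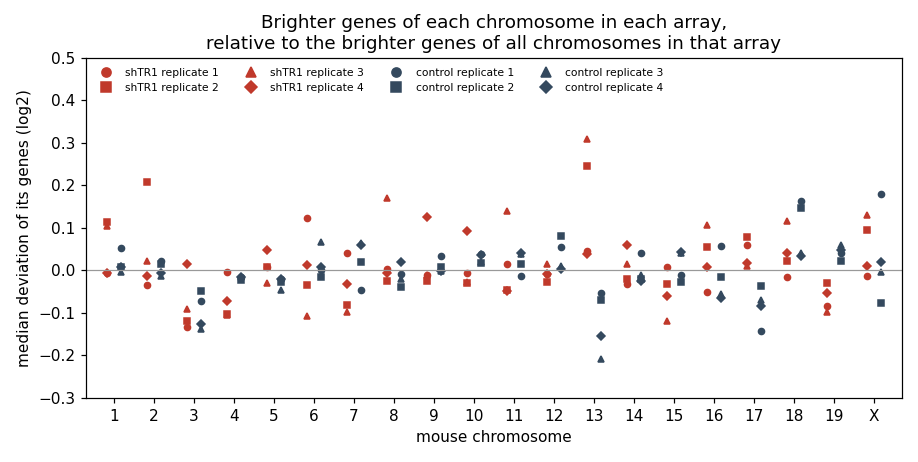
For each mouse chromosome (horizontal axis), the median deviation of its brighter genes in each shTR1 array (red, left) and each control array (dark, right), in log2 units relative to the brighter genes of all chromosomes in that array. On chromosome 13 the shTR1 arrays run from 0.04 to 0.31 and the controls from −0.21 to −0.05, and on chromosome 17 from 0.01 to 0.08 and from −0.14 to −0.04.

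Direct comparisons of shTR1 with the other knockdown lines use the same shTR1 arrays but not the controls. Over all probe sets, 292 differed between shTR1 and shSep15 (0.648%) and 33 between shTR1 and shTR1/shSep15 (0.0733%). Arhgef5 averaged 4.52 ± 0.17 in shTR1, 4.65 ± 0.18 in shSep15 and 9.55 ± 0.21 in shTR1/shSep15 (SD, n = 4 each). The log2 difference was −5.04 for shTR1 minus shTR1/shSep15 (adjusted p = 8.83e-10) and −0.13 for shTR1 minus shSep15 (adjusted p = 0.993). Phrf1 averaged 7.83 in shTR1, 7.78 in shSep15 and 9.13 in shTR1/shSep15, with −1.31 between shTR1 and shTR1/shSep15 (adjusted p = 0.000176). For both genes the line with both hairpins stood closer to the control means of 9.22 and 9.69 than shTR1 and shSep15 did. Tsnax was lower in shTR1 than in shTR1/shSep15 by 1.30 (adjusted p = 0.0165), and Lrrn4cl did not pass (−3.04, adjusted p = 0.0609).

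Dppa2 and Jakmip3 had another pattern. Dppa2 averaged 3.51 in shTR1, 3.74 in shSep15 and 3.94 in shTR1/shSep15, against 8.15 in control, and Jakmip3 averaged 3.49, 3.51 and 3.32 in the same order, against 4.72 in control. No difference of shTR1 from either knockdown line passed for these genes. Ccr1 had its own, with 7.56 in shTR1, 4.11 in shSep15 and 6.73 in shTR1/shSep15, against 4.39 in control. It was higher in shTR1 than in shSep15 by 3.45 (adjusted p = 0.000211), while its difference of 0.84 from shTR1/shSep15 did not pass (adjusted p = 0.405).

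Among the higher genes, Stx1a (1.27 and 0.79), Rpp21 (1.28), Ahcyl2 (1.24), Rgs17 (1.20), Ttbk2 (1.03), Mta3 (0.95) and Larp4b (0.81) were also higher in shTR1 than in shTR1/shSep15, with adjusted p-values of 0.0157 to 0.0419. Pecr (0.73, adjusted p = 0.0284) and Rab31 (0.66, adjusted p = 0.0428) were higher in shTR1 than in shSep15, and the microtubule-associated Mtus2 was lower (−0.76, adjusted p = 0.036). For most other called genes the differences of shTR1 from the other knockdown lines did not pass, which does not show that the lines are alike.

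Several genes that the study names for shTR1 cells had large differences that did not pass. Usp18, an enzyme that removes the ubiquitin-like protein ISG15, had 4.68, 10.47, 6.40 and 11.73 in shTR1, against 3.73, 5.0, 4.79 and 3.78 in control (difference 4.00, standard error 1.22, adjusted p = 0.215). Replicates 2 and 4, which did not fall below control at the brightest Txnrd1 probe set, had the highest signals, and without them the difference was 1.22. Ccnb1ip1, a ubiquitin ligase that binds cyclin B1, was also highest in replicates 2 and 4, with 4.74, 7.59, 4.83 and 6.84 in shTR1, against 5.20, 4.02, 4.46 and 4.36 in control (difference 1.49, adjusted p = 0.303), and 0.28 without replicates 2 and 4. The means in shSep15 were 10.35 for Usp18 and 7.27 for Ccnb1ip1, and in shTR1/shSep15 they were 3.64 and 4.43.

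Speg, a kinase of striated muscle, leaned on another array, with 8.17, 6.06, 6.52 and 5.16 in shTR1, against 4.13, 3.12, 4.45 and 4.07 in control at its most changed probe set (difference 2.54, adjusted p = 0.138). A second differed by 1.45 (limma, unadjusted p = 0.00232, adjusted p = 0.162) and the last ones by 0.06 and −0.24. Cd68, a lysosomal glycoprotein, had 9.04, 8.66, 5.83 and 9.06 in shTR1, against 4.88, 5.83, 6.53 and 4.69 in control (difference 2.67, adjusted p = 0.101), with replicate 3 inside the control range. The glycosyltransferase Gcnt2 (1.98), the insulin receptor substrate Irs1 (1.88), the lysosomal trafficking regulator Lyst (1.85) and the exchange factor Ngef (1.66) had adjusted p-values of 0.0781 to 0.138 at the probe set with the largest difference. Klf2, a Krueppel-like transcription factor, had 6.78, 5.79, 7.74 and 6.68 in shTR1, against 8.64, 10.97, 8.37 and 8.52 in control (difference −2.38, adjusted p = 0.0715). Its arrays did not overlap, and the same was true of 1 of the 4 probe sets of the secreted chaperone clusterin, Clu, which differed by −1.85 to −2.29 (adjusted p = 0.0989 to 0.152).

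Interferon-stimulated genes were uneven among the shTR1 arrays. Of 43 measured, none passed the test, 10 had a positive (23.3%) and 1 a negative difference (2.33%) with an unadjusted p below 0.05, and the median difference was 0.59. The list means were 6.28, 7.66, 6.22 and 8.84 in shTR1 replicates 1 to 4, against 6.12, 7.51, 6.24 and 5.97 in control. High values were thus found in shTR1 replicates 2 and 4 and in control replicate 2, and the other 5 arrays were close together. For comparison, over all 18193 genes 39 were higher (0.214%) and 11 lower (0.0605%) by the adjusted p, and 1652 (9.08%) and 887 (4.88%) by the unadjusted p, with a median difference of −0.03. The median of the list was −0.11 without shTR1 replicates 2 and 4 and kept its sign under the other alternatives (up to 1.19), so that its direction rested on these 2 arrays.

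The interferon-inducible GTPases, which act on the vacuoles of intracellular pathogens, were highest in shTR1 replicate 4. Their list means were 4.54, 6.03, 4.96 and 8.91 in shTR1, against 4.63, 6.22, 4.69 and 4.39 in control, and the median of 0.86 over 11 genes was −0.07 without shTR1 replicate 4 and −0.11 without shTR1 replicates 2 and 4. Gbp2b, for instance, had 4.66, 5.74, 5.18 and 11.02 in shTR1, against 4.48, 8.06, 4.66 and 5.02 in control. Irgm2 had 4.72, 7.10, 4.36 and 8.59 in shTR1, against 3.64, 3.60, 4.77 and 3.60 in control (difference 2.29, adjusted p = 0.28). Of 15 genes of class I antigen presentation 14 had a positive difference, with a median of 0.38 and none past the test. Among all brighter genes, 57.5% had a positive difference. The list mean of shTR1 replicate 3 (7.78) lay inside the control range (7.67 to 7.99). Replicates 1, 2 and 4 lay above that range, with replicate 4 the highest (8.82). Without shTR1 replicates 2 and 4 the list median was 0.15. Psmb8, a subunit of the immunoproteasome, had 5.11, 6.71, 4.87 and 7.54 in shTR1, against 4.33, 4.79, 4.71 and 4.62 in control (1.45, adjusted p = 0.2).

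**Figure D4:**
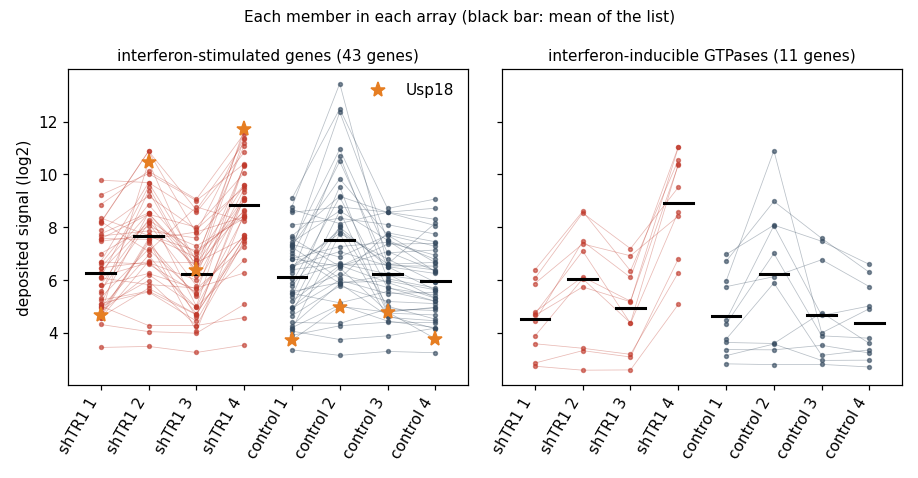
Log2 signal of each interferon-stimulated gene (left, 43 genes) and each interferon-inducible GTPase (right, 11 genes) in the 4 shTR1 arrays (red) and the 4 control arrays (dark), with a line per gene within each line of cells, a black bar for the list mean and a star for Usp18. The means of the left panel reach 7.66 and 8.84 in shTR1 replicates 2 and 4 and 7.51 in control replicate 2, while the other 5 arrays lie between 5.97 and 6.28.

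Promoters of these genes often hold the interferon-stimulated response element, to which interferon regulatory factors bind. Its core, searched as GAAANNGAAA on both strands in the 250 bases before the start, was found in 9 of 34 interferon-stimulated genes with a promoter in the RefSeq table (26.5%), in 7 of 8 GTPases (87.5%) and in 936 of 27025 promoters in all (3.46%). It was found in 1 of the 51 genes past the test that have a promoter there (1.96%). For the Nrf2 target genes, the antioxidant response element searched as TGACNNNGC was found in 7 of 23 (30.4%), against 11.5% of all promoters and 6 of the 51 genes past the test (11.8%). The 4 promoters shown are those with the core among the interferon genes of the largest differences, as the 150 bases before the RefSeq start (GRCm38.p6), with the core in capitals. In Gbp7 it lies on the other strand.
Irgm2, chr11:58214827-58214976, + strand, core starting 64 bases before the start: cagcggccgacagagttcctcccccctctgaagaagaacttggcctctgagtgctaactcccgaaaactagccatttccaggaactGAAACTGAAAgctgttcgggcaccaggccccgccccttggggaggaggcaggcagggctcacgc
Oas3, chr5:120777660-120777809, − strand, core starting 75 bases before the start: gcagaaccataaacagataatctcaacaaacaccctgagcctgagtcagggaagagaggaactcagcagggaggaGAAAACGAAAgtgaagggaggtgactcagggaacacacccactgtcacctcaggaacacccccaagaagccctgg
Gbp7, chr3:142530186-142530335, + strand, core starting 53 bases before the start: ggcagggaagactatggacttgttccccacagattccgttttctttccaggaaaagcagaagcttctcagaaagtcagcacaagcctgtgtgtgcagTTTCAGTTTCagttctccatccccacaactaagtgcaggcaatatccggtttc
Igtp, chr11:58199406-58199555, + strand, core starting 34 bases before the start: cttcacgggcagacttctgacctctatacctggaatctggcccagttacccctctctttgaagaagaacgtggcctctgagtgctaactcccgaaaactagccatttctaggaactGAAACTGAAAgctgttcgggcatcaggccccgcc
In the arrays, Oas3 had 4.58, 7.49, 4.06 and 8.51 in shTR1, against 4.07, 3.75, 3.89 and 4.18 in control. Gbp7 had 3.88, 6.05, 4.38 and 10.39 in shTR1, against 3.76, 5.89, 3.15 and 3.36 in control, and Igtp had 6.38, 8.60, 6.35 and 10.54 in shTR1, against 5.75, 6.13, 6.77 and 5.75 in control. In all 3, shTR1 replicates 2 and 4 were the highest of the shTR1 arrays, and none passed (adjusted p = 0.348, 0.478 and 0.411). A match of letters is a description of the promoter and shows no binding.

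The genes closest to TR1 in function did not pass the test. Of 25 genes of the thioredoxin system none passed, 15 had a positive difference, 3 were higher at the unadjusted p (12%, against 9.08% of all genes) and the median was 0.04. Txndc17, a thioredoxin-like reductase of disulfides, had 11.28, 10.74, 11.01 and 11.09 in shTR1, against 10.67, 9.86, 10.53 and 10.33 in control (0.68, adjusted p = 0.163), with no overlap between the lines. Txnrd2, the mitochondrial thioredoxin reductase, had 7.52, 7.82, 7.33 and 7.14 in shTR1, against 7.07, 6.73, 7.16 and 7.19 in control (0.42, adjusted p = 0.293). Txnip, which binds and inhibits thioredoxin, was brightest in control replicate 2 (13.43), with 9.01 to 9.90 elsewhere (−1.13, adjusted p = 0.513). The list medians were −0.02 for glutathione synthesis and reduction (24 genes), 0.07 for Nrf2 and its target genes (28), 0.17 for selenoproteins (23) and 0.28 for deoxynucleotide synthesis (18), with none past the test in any of them. Under other settings the first 2 of these 4 medians and that of the thioredoxin system took either sign.

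In the lists of DNA repair and the cell cycle no gene passed either. Of 50 DNA repair genes 14 were higher at an unadjusted p under 0.05 (28%) and 1 was lower, with a median difference of 0.25. The share that was higher was 9.08% of all genes and 13.5% of the brighter genes. The list averaged 6.73, 7.29, 7.19 and 6.94 in shTR1, against 7.03, 6.63, 6.66 and 6.76 in control. Replicates 1 and 4 of shTR1 thus lay inside the control range, and without shTR1 replicates 2 and 4 the median was 0.09. Lig4, the ligase of non-homologous end joining, had 6.14, 5.93, 6.79 and 5.82 in shTR1, against 5.61, 3.87, 4.91 and 4.61 in control (1.42, adjusted p = 0.135). Prkdc (1.17) and Xrcc5 (0.96), of the same pathway, had adjusted p-values of 0.282 and 0.102. The DNA repair median lay between 0.02 and 0.40 over the alternatives, the lowest being that with the spike-in signal as a covariate. The genes of G2 and mitosis averaged 7.71, 9.19, 8.78 and 8.03 in shTR1, against 9.26, 7.44, 7.68 and 9.09 in control. They thus differed by more within each line than between the lines, and the genes of DNA replication and S phase had the same order of arrays, with 7.59, 8.70, 8.47 and 7.98 in shTR1 and 8.58, 7.14, 7.66 and 8.34 in control. The medians were 0.03 for G2 and mitosis and 0.30 for S phase, and with the spike-in signal as a covariate they were −0.33 and −0.10.

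Control replicate 2 stood apart over all probe sets, and also in immediate-early genes and chemokines. Its correlations with the other arrays of the series were 0.828 to 0.888, and its weight in the fit with array weights was the lowest (0.244). The log2 difference between the 3′ and 5′ control probe sets of Actb was 0.79 there, against 0.38 to 0.56 in the other arrays. The list of Krueppel-like factors and immediate-early genes averaged 7.96, 8.16, 8.25 and 8.08 in shTR1, against 7.95, 10.64, 8.08 and 7.76 in control, so that its median of −0.49 over 31 genes was 0.25 without control replicate 2 and 0.04 with array weights. Fos read 13.52 there and 5.41 to 8.02 elsewhere. Of 35 chemokines and chemokine receptors 32 had a negative difference, 4 of the 35 at an unadjusted p under 0.05 (11.4%, against 4.88% of all genes), and Ccr1 was the one gene past the test. The median was −0.22, against −0.03 over all genes, and −0.35 to −0.17 with 1 array left out. Marker lists of similarly low signal leaned the same way: lymphocyte (12 of 13 negative), endothelial (11 of 14), colon epithelial (18 of 23), macrophage (10 of 15), and fibroblast and muscle (9 of 14). Ccl2 had 5.21, 4.58, 6.13 and 5.13 in shTR1, against 6.02, 13.19, 5.60 and 5.98 in control (−2.44, adjusted p = 0.443). The 59 and 22 called probe sets became 59 and 36 without control replicate 2.

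Gldc was the one of 20 serine, glycine and one-carbon enzymes that passed (median 0.07) and Dppa2 the one of 25 pluripotency and germ cell genes (median −0.10). Among 45 matrix and mesenchymal genes, Mfap5 passed and Col3a1, a fibrillar collagen, had 7.95, 4.01, 5.48 and 4.29 in shTR1, against 7.66, 6.84, 8.32 and 7.55 in control (−2.16, adjusted p = 0.223). Fn1, fibronectin, had 11.78, 11.67, 10.94 and 10.97 in shTR1, against 9.81, 9.84, 10.68 and 9.84 in control (1.30, adjusted p = 0.086), with no overlap. For ATP-binding cassette transporters the median over 35 genes was 0.05, with 6 higher (17.1%, against 9.08% of all genes) and 1 lower (2.86%, against 4.88%) at the unadjusted p. For ubiquitin-conjugating enzymes, the Wnt pathway, p53 target genes, caspases and apoptosis regulators, unfolded protein response and chaperones, selenocysteine machinery, cytokine receptors and signalling, and glycolysis and NADPH supply the medians were 0.02, −0.05, −0.15, 0.03, 0.10, 0.23, −0.15 and 0.23, with none past the test. The medians of these lists took the other sign under at least 1 alternative, except those of the matrix genes, the selenocysteine machinery and the cytokine receptors. Probe sets without a single symbol entered no list.

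**Figure D5:**
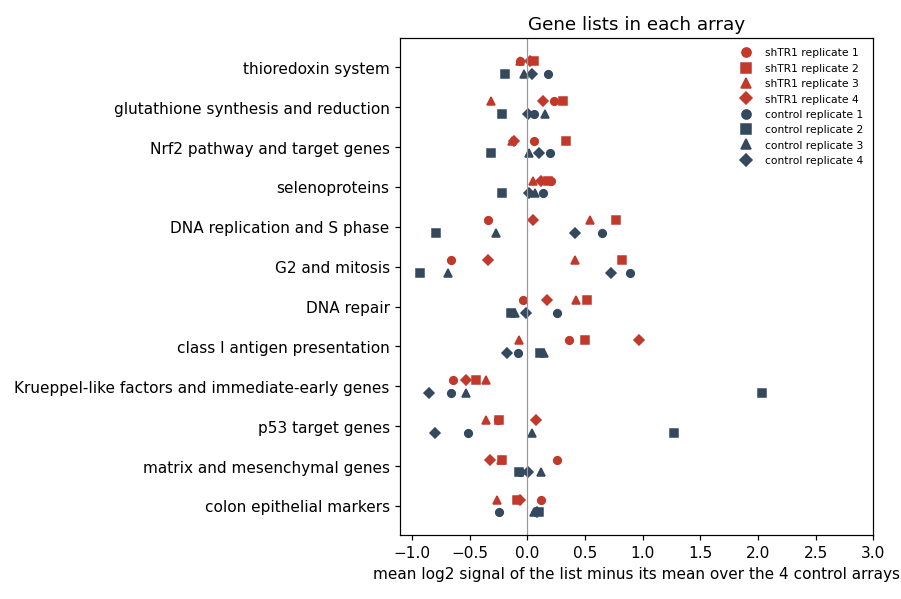
Mean log2 signal of 12 gene lists in each shTR1 array (red, upper line of each pair) and each control array (dark, lower line), relative to the list's mean over the 4 controls. The shTR1 and control arrays overlap in every list, and control replicate 2 stands far to the right for Krueppel-like factors and immediate-early genes, where its mean was 10.64.

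Markers of the labelled tissue were weak in both lines. The 23 colon epithelial markers averaged 4.87, 4.66, 4.49 and 4.69 in shTR1, against 4.51, 4.85, 4.81 and 4.84 in control, close to the array medians, and Epcam read 5.44 to 5.97 in shTR1 and 5.68 to 6.49 in control. Krt18, an epithelial keratin, had 8.69, 8.90, 4.81 and 7.93 in shTR1, against 6.17, 6.16, 5.67 and 5.78 in control (1.64, adjusted p = 0.328). The 15 macrophage markers averaged 4.86, 4.67, 4.40 and 4.80 in shTR1, against 4.38, 4.68, 4.80 and 4.62 in control, and of these Cd68 had the largest difference while Adgre1, a defining marker, read 3.08 to 3.63 in shTR1 and 3.53 to 3.78 in control. The lymphocyte markers (13 genes, median −0.19), endothelial markers (14, −0.16) and fibroblast and muscle markers (14, −0.13) had no gene past the test, and the macrophage, lymphocyte and fibroblast medians turned slightly positive with the spike-in covariate (0.10, 0.02 and 0.01). In the endothelial list Selp differed by 1.57 (adjusted p = 0.197).

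The arrays differed in scale and in spike-in signal. Upper quartiles were 6.51 to 6.76 in shTR1 and 6.39 to 6.67 in control. The mean signal of the hybridization spike-in probe sets was 9.18 to 10.23 in shTR1 and 9.45 to 10.65 in control. Control replicates 2, 3 and 4 (10.62, 10.33 and 10.65) lay above every shTR1 array. With the spike-in signal as a covariate, 19 probe sets were higher and 16 lower, and 32 of the 81 passed. Correlations over all probe sets were 0.925 to 0.969 within shTR1, 0.856 to 0.970 within control and 0.855 to 0.975 between the 2 lines. The lowest within control and between the lines were those of control replicate 2. The median SD of a probe set was 0.2 in shTR1, 0.251 in control, 0.172 in shSep15 and 0.167 in shTR1/shSep15, and the part of the scale differences in the calls was not tested beyond these settings.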

How the data were processed

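Total RNA was extracted with TRIzol and hybridized to Affymetrix mouse genome arrays, 4 arrays for each of 4 stably transfected CT26 lines. The authors processed the scans with RMA (background correction, quantile normalization and probe set summary, version not given in the sources used here) and deposited log2 signals. RMA draws arrays to one distribution, so a shift of all genes in a line cannot be seen. Of 45101 probe sets, 64 control ones were left out and 45037 tested, 34945 of them with 1 gene symbol in the platform annotation. All columns were mapped to a sample (0 not mapped).

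Differences were tested with limma 3.58.1 in R 4.3.3 by a linear model with a mean per line over 16 arrays (12 residual degrees of freedom, no filter), empirical Bayes moderation and Benjamini-Hochberg adjustment over all probe sets. The threshold was an adjusted p of 0.05. Single values were also compared by two-sided exact permutation tests. No read depth applies to arrays, and the 4 arrays a line limit the precision. A gene in a list or on a chromosome was represented by 1 probe set, and brighter genes are those with a mean signal over 16 arrays above the median of all probe sets. Every gene past the threshold with 1 symbol could be named, with full values for the 15 largest differences in each direction, and so could Txnrd1, Selenof, genes named by the study for shTR1 cells and, for a list, its members past the threshold or else its extremes. A few other list members were named after their values were seen. The comparison, lists and rules were chosen with earlier results of these data known. The pipeline was tested on simulated data. The results of 1 gene list are not reported here. Alternatives were a fit on 8 arrays, other moderation, a replicate block, array weights, a spike-in covariate, further scaling, a filter on dim probe sets, a fold criterion and arrays left out. Promoters were taken from RefSeq (GRCm38.p6), which was also used for chromosomes and neighbours; the files name no build. Figures were drawn with Python 3.11.15 and matplotlib 3.10.9.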

Additional observations from a re-analysis of the deposited data

Results flagged for a closer look

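Of 230 groups of 4 arrays examined, 19 had 1 array standing apart from the other 3 by Dixon's criterion, which chance alone gives in about 1 of 20 groups. In shTR1, replicate 1 stood apart for Dhx57 (6.35, others 6.45 to 6.47), Trappc12 (6.64, others 6.79 to 6.82), Lrrn4cl (5.85, others 4.76 to 4.91) and Naip2 (7.95, others 6.98 to 7.12). Replicate 3 stood apart for Rgs17 (4.54, others 5.26 to 5.35) and Cd68 (5.83, others 8.66 to 9.06). In control, replicate 1 stood apart for Cript (9.70, others 9.35 to 9.39), Srpk1 (7.87, others 7.60 to 7.64) and the mean of the colon epithelial markers (4.51, others 4.81 to 4.85), replicate 3 for Ccr1 (4.91, others 4.19 to 4.24) and replicate 4 for Ahcyl2 (6.02, others 6.75 to 6.78).

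Control replicate 2 stood apart for Foxred2 (5.67, others 4.63 to 4.78), Cmtr1 (6.03, others 6.67 to 6.75) and Klf2 (10.97, others 8.37 to 8.64). List means that stood apart there were those of the interferon-inducible GTPases (6.22, others 4.39 to 4.69), Krueppel-like factors and immediate-early genes (10.64, others 7.76 to 8.08), ATP-binding cassette transporters (5.72, others 6.01 to 6.02) and glycolysis and NADPH supply (7.86, others 8.81 to 8.98). All values are log2 signals.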

How the results depend on the processing

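The 59 probe sets higher in shTR1 became 27 with an intensity trend, 0 in the fit on 8 arrays, 39 with an unmoderated linear model, 179 with array weights, 19 with the spike-in covariate, 10 without shTR1 replicates 2 and 4, 26 with a 2-fold criterion and 13 to 175 with 1 array left out. The 22 lower became 4 in the fit on 8 arrays, 14 with an unmoderated linear model, 43 with array weights, 10 without shTR1 replicates 2 and 4 and 12 to 44 with 1 array left out. An unmoderated linear model at an unadjusted p under 0.05 gave 2835 higher and 2202 lower. Robust moderation (56 and 20), a filter on dim probe sets (63 and 16), median centring (62 and 16) and quantile normalization (45 and 31) stayed within 1.5 times for both counts. The brightest Txnrd1 probe set differed by −0.57 to −1.48 with 1 array left out. It differed by −2.10 without shTR1 replicates 2 and 4, which were set aside on that same probe set. In that fit the other Txnrd1 probe sets differed by −1.21 and −0.52 and did not pass. With a replicate block, 92 were higher and 22 lower, but arrays of the same number did not deviate together (r of −0.484, −0.064, −0.528 and 0.00191 for numbers 1 to 4), so the numbers do not pair the samples. Over 1964 alternative values of named probe sets, 1343 kept direction and side of the threshold, 598 no longer passed, 23 newly passed and 0 reversed. Of 708 alternative list medians, 69 had the opposite sign. The cause was not tested for any of these changes. The number of arrays and the low signal of the dim probe sets limit what could be detected.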
